A study of Homo sapiens with 8 samples.

Results

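Described here are 9 genes at the receiving end of interferon (IFN) signalling: the receptor chains IFNAR1, IFNAR2, IFNGR1 and IFNGR2, the Janus kinases JAK1, JAK2 and TYK2, the transcription factor STAT2 and the feedback inhibitor SOCS1. They were chosen by gene symbol from a deposited table of 60664 gene rows, in which 10 rows carry one of these symbols. The extra row is labelled IFNAR2 but its identifier belongs to IFNAR2-IL10RB, a read-through transcript of IFNAR2 and its neighbour, and it was kept apart. All 9 genes passed the filter on low values.

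RNA was sequenced from THP-1 cells, a human line derived from an acute monocytic leukemia, and from THP-1 cells made resistant to decitabine (DAC), a cytidine analogue that lowers DNA methylation once it is built into DNA. Each line was given DMSO, the solvent control, or 1 µM DAC for 6 days, so the 4 groups were parental DMSO, parental DAC, DAC-resistant DMSO and DAC-resistant DAC, each with 2 biological replicates. The labels give the genotype WT for all 8 libraries. The resistant cells were survivors of repeated high-dose DAC pulses and had been kept without drug before the experiment, and they are a single selected derivative, so a difference between the lines cannot be told apart from the history of that culture.

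Type I IFNs (IFN-α and IFN-β) bind a receptor of the chains IFNAR1 and IFNAR2, which carry the kinases TYK2 and JAK1. IFN-γ binds IFNGR1 and IFNGR2, which carry JAK1 and JAK2. The kinases phosphorylate STAT proteins, and type I IFN joins STAT2 with a partner STAT and IRF9 in the complex ISGF3, which binds the IFN-stimulated response element (ISRE) of IFN-stimulated genes (ISGs), while SOCS1, itself induced by the pathway, shuts the kinases off. In monocytic cells this pathway is known for antiviral defence and, through IFN-γ, for macrophage activation.

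The deposited unit is FPKM, the reads of a gene scaled by its length and by the library total, and whole reads recovered from the values came to 27407625 to 31858577 per library. Differences were tested with limma on log2(FPKM + 1) over 14899 genes, in one fit of the 4 groups. "Rose", "fell", "higher" and "lower" with a test refer to a Benjamini-Hochberg adjusted p under 0.05 over all those genes, and "past 2-fold" to an unadjusted p of at most 0.01 with a log2 difference of at least 1. The monocytic markers summed to 371 FPKM in both parental DMSO libraries, 567 to 575 with DAC, 233 to 240 in the resistant line with DMSO and 254 to 263 with DAC, and none of the 11 was at 0. CSF1R, LYZ and ITGAM were among the 8 of 11 that were lower in the resistant line with DMSO, beside 26.2% of all genes. T cell receptor genes CD3D, CD3E and CD3G did not exceed 0.355 FPKM as a group mean, and the erythroid list summed to at most 3.2 FPKM in any library. The NK cell granule gene NKG7 averaged 5.67 FPKM in parental DMSO, 16.7 with DAC and 2.19 and 2.14 in the resistant groups. Of the 8 T and NK cell markers, 6 were at 0 in both parental DMSO libraries, 1 with DAC, and 4 and 5 in the resistant groups. The B and plasma cell list summed to 7.89 to 8.30 FPKM in parental DMSO, 13.1 to 14.7 in parental DAC and 8.61 to 9.51 in the resistant libraries. The epithelial and stromal list, most of it PECAM1, also a leukocyte gene, summed to 43.1 to 43.2, 62.1 to 64.8 and 18.7 to 23.5. The part of these markers in the results was not tested, and in bulk RNA fewer cells of a type and less RNA per cell cannot be told apart.

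Upstream sequence is shown first for the 4 genes whose response to DAC differed between the lines, since DAC acts on the CpG sites of DNA. Each is the stretch of the RefSeq promoter window (GRCh38.p14, 250 bases before the start) that lies outside every annotated transcript of the gene, 5′ to 3′ on the gene's strand, with each CpG in capitals.
STAT2, chr12:56360204-56360357, minus strand: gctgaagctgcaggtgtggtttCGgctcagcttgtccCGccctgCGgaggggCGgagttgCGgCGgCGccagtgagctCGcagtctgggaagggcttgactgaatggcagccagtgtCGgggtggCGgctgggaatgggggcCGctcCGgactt
IFNGR1, chr6:137219450-137219635, minus strand: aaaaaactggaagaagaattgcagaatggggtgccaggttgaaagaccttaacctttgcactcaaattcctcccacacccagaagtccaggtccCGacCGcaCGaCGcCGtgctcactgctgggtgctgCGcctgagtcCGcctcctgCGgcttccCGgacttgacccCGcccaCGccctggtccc
IFNGR2, chr21:33403163-33403412, plus strand: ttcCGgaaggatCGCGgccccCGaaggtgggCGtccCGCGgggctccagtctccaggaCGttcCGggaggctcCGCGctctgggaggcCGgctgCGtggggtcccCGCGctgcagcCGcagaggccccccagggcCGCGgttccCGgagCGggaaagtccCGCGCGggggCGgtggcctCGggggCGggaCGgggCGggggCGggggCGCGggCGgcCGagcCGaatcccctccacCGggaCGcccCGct
SOCS1, chr16:11256205-11256454, minus strand: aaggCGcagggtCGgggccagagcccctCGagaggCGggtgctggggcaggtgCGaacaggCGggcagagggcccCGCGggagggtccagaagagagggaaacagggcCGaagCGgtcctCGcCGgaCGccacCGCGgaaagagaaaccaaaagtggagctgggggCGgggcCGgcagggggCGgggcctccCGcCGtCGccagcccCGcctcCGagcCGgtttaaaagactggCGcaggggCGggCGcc

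Over the full 250 bases there were 21 CpGs for STAT2, 24 and 19 in the 2 windows listed for IFNGR1, 37 for IFNGR2 and 27 for SOCS1, and the median over 35116 RefSeq windows of that length was 11. The windows of the other members in the table held 15 and 23 for IFNAR1, 3 to 35 for JAK1, 8 to 36 for JAK2 and 19 for TYK2, so the count does not set the 4 genes apart. The stretches shown for STAT2 and IFNGR1 are shorter and hold 12 in 154 bases and 11 in 186. An ISRE-type match (GAAANNGAAA on either strand) was found for SOCS1 alone, as gaaagagaaa, whose first base lies 113 bases before the RefSeq start. Such a match stood in 3.02% of all windows. No member's window held a match to the GAS-type letters (TTCNNNGAA, the same on both strands), which stood in 6.57% of all windows. The windows of 8 genes were in the RefSeq table, and IFNAR2 had no entry. Methylation was not analysed here, and a match or its absence is a description of these letters only.

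Among the 9 genes, STAT2 alone moved past 2-fold. With DAC in parental cells 5 genes rose (STAT2, IFNGR2, IFNGR1, IFNAR1 and SOCS1), TYK2 fell, and IFNAR2, JAK1 and JAK2 passed in neither direction. That is 6 of 9 beside 57.7% of all genes tested (33.6% higher and 24.1% lower), so the number of calls was close to the background. Past 2-fold it was 1 of 9 beside 9.31%. The 9 genes had a median log2 difference of 0.16, and all genes 0.06. In resistant cells DAC left 2 calls of 9, a rise of IFNGR2 and a fall of TYK2, beside 11.2% of all genes (5.88% higher and 5.35% lower), and none past 2-fold beside 0.235%. The libraries of the DAC and DMSO groups did not overlap for 9 of 9 genes in parental cells (79.4% of all genes) and for 7 of 9 in resistant cells (56.3%).

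**Figure D1:**
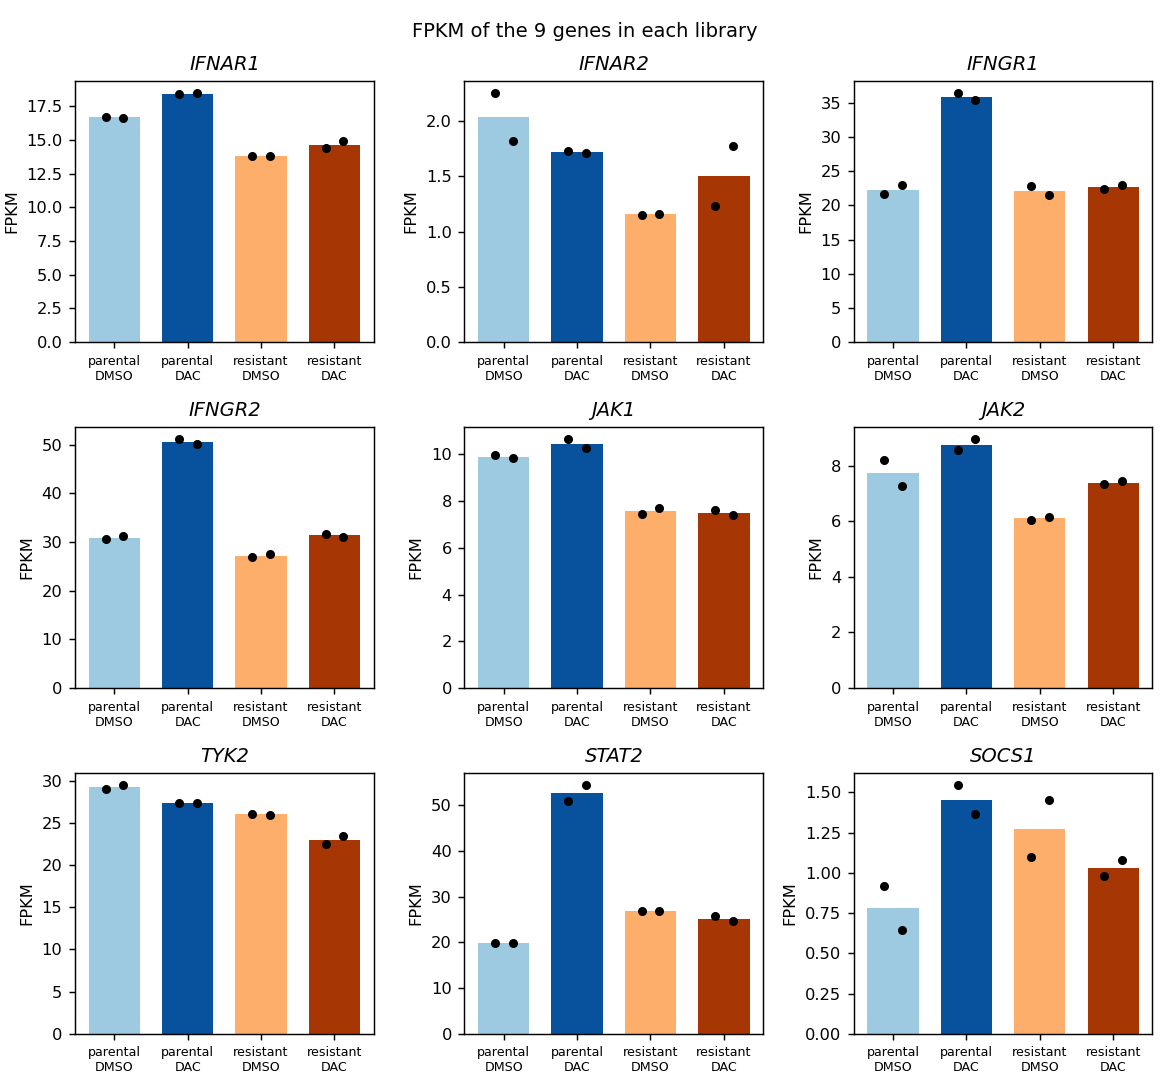
FPKM of each gene in the 8 libraries: bars are group means, black points the 2 libraries, each axis starts at 0 and has its own scale. STAT2, IFNGR1 and IFNGR2 stand highest in parental DAC, and TYK2, JAK1 and IFNAR1 are lower in both resistant groups than in both parental groups.

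IFNAR1 (ENSG00000142166, chr21:33324387-33359864), the TYK2-binding chain of the type I receptor, was at 16.8 and 16.7 FPKM in parental DMSO, 18.4 and 18.5 in parental DAC, 13.9 and 13.8 in resistant DMSO, and 14.4 and 14.9 in resistant DAC. No resistant library reached a parental one. DAC raised it by 10.5% in parental cells (log2 difference 0.14 ± 0.03 SE, limma adjusted p = 0.00977), which did not pass under quantile normalization (0.03, adjusted p = 0.412) or upper-quartile scaling (0.02, adjusted p = 0.533), in a range of adjusted p over 10 settings from 0.00425 to 0.533. The resistant line was lower by 0.25 in DMSO (adjusted p = 0.000573) and by 0.31 in DAC (adjusted p = 0.000155) on the log2 scale.

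IFNAR2 (ENSG00000159110, chr21:33205282-33265675), the chain that binds ligand and carries JAK1, was the scarcest receptor chain. It stood at 2.25 and 1.82 FPKM in parental DMSO, 1.73 and 1.71 in parental DAC, 1.15 and 1.16 in resistant DMSO, and 1.23 and 1.77 in resistant DAC. It was 43.1% lower in resistant than in parental cells with DMSO (log2 difference -0.49 ± 0.13 SE, adjusted p = 0.0144), and voom on recovered reads, without the added 1 FPKM, gave -0.81. That call was lost without parental DMSO replicate 1 (-0.39, adjusted p = 0.0815), resistant DMSO replicate 1 (-0.49, adjusted p = 0.058) or resistant DMSO replicate 2 (-0.49, adjusted p = 0.0558). The 2 resistant DAC libraries spanned the parental DAC pair. Of its annotated exonic bases 27.7% lie under another gene (IFNAR2-IL10RB or IL10RB-DT). HTSeq can leave out reads that fit 2 genes, and which mode was used is not given in the sources used here, so its level is uncertain to that extent. The read-through row had 39 and 31 reads in parental DMSO, 46 and 43 in parental DAC, 13 and 15 in resistant DMSO, and 15 and 20 in resistant DAC, with every resistant library under every parental one, and it was under the filter. Of its exonic bases 98.5% lie under IFNAR2, IL10RB or IL10RB-DT, so nearly all of its reads could belong to these genes.

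IFNGR1 (ENSG00000027697, chr6:137197483-137219449), the ligand-binding chain of the IFN-γ receptor, rose only with DAC in parental cells. Its values were 21.7 and 23.0 FPKM in parental DMSO, 36.4 and 35.4 in parental DAC, 22.8 and 21.5 in resistant DMSO, and 22.4 and 23.0 in resistant DAC. The parental DAC pair stood apart, and the other 3 groups overlapped. The rise was 1.61-fold (log2 difference 0.66 ± 0.04 SE, adjusted p = 2.9e-05), while the resistant line gave 0.03 (95% interval -0.07 to 0.13). The difference between the 2 responses was -0.63 ± 0.06 SE (adjusted p = 0.000258).

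IFNGR2 (ENSG00000159128, chr21:33403413-33479348), the partner chain that carries JAK2, rose in both lines and more in the parental line. It measured 30.6 and 31.2 FPKM in parental DMSO, 51.2 and 50.2 in parental DAC, 26.8 and 27.5 in resistant DMSO, and 31.8 and 31.0 in resistant DAC. The resistant DAC pair lay at the level of parental DMSO, which it overlapped. DAC raised it 1.64-fold in parental cells (log2 difference 0.70 ± 0.03 SE, adjusted p = 3.9e-06) and 1.16-fold in resistant cells (0.20 ± 0.03 SE, adjusted p = 0.00891), and these responses differed by -0.49 ± 0.04 SE (adjusted p = 0.000129). The smaller rise lost its call without resistant DMSO replicate 1 (0.19, adjusted p = 0.0604) and without resistant DAC replicate 1 (0.19, adjusted p = 0.0561).

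IFNGR2 shares 14.97% of its exonic bases with TMEM50B on the opposite strand, and whether the counting used the strand is not given in the sources used here, so reads of the shared stretch could be left out or assigned to either. In parental cells DAC raised TMEM50B by 0.77 (adjusted p = 1.2e-05) and it fell by 0.29 in resistant cells (adjusted p = 0.00891), the opposite direction to IFNGR2 there.

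Across the receptor cluster of chromosome 21, where IFNAR2, IL10RB, IFNAR1 and IFNGR2 lie side by side, the genes did not move as a block. IL10RB, the shared second chain of the IL-10 and IFN-λ receptors, had log2 differences of -0.15 with DAC in parental cells (adjusted p = 0.294) and 0.08 in resistant cells (adjusted p = 0.6995). The flanking transcription factor gene OLIG1 rose by 1.04 in parental cells (adjusted p = 0.000371), the splicing factor gene SON by 0.31 (adjusted p = 8.3e-05) and the replication gene DONSON by 0.17 (adjusted p = 0.00895). CRYZL1 fell by 0.39 (adjusted p = 0.00255), and GART and DNAJC28 passed in neither direction. The divergent transcript IL10RB-DT reached 1 FPKM in parental libraries alone (2.01 to 2.27, against 0.328 to 0.563 in the resistant ones), and OLIG1 was lower in the resistant line by 0.89 (adjusted p = 0.000788) and 2.30 (adjusted p = 6.4e-06).

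**Figure D2:**
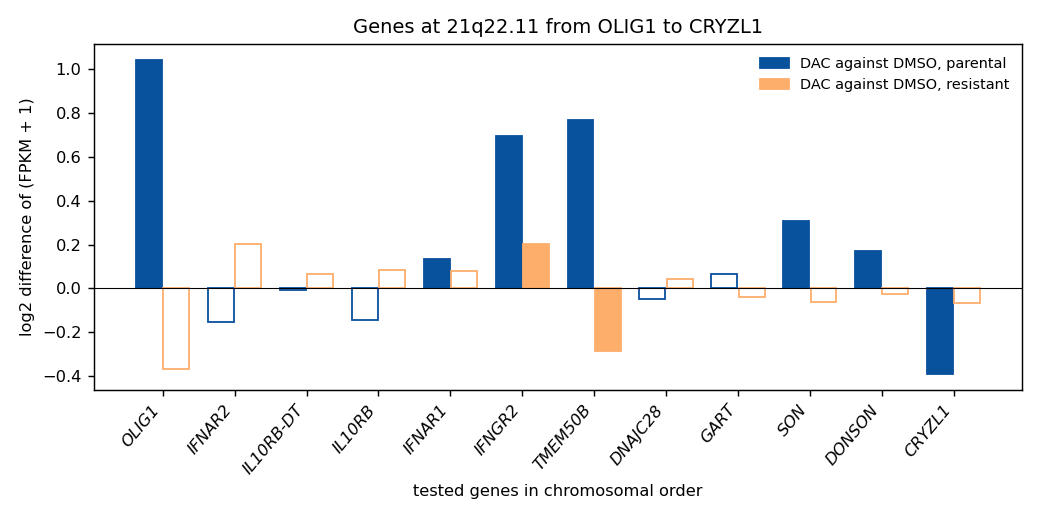
Log2 difference of FPKM + 1 between DAC and DMSO for the tested genes of the receptor cluster on chromosome 21, in chromosomal order: blue bars parental cells, orange bars resistant cells, filled where the adjusted p is under 0.05. IFNGR2 and TMEM50B rise together in parental cells (0.70 and 0.77) and part in resistant cells (0.20 and -0.29), while IFNAR2 and IL10RB are open in both lines.

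As a set of receptor messages, the 4 chains summed to 71.3 and 72.6 FPKM in parental DMSO, 108 and 106 in parental DAC, 64.6 and 64.0 in resistant DMSO, and 69.8 and 70.7 in resistant DAC. The parental DAC libraries exceeded all others. The ratio of IFNGR2 to IFNGR1 was 1.41 and 1.36 in parental DMSO, 1.41 and 1.42 in parental DAC, 1.18 and 1.28 in resistant DMSO, and 1.42 and 1.35 in resistant DAC. The resistant DMSO pair lay under the other 6 libraries, and in the resistant line the DAC and DMSO libraries did not overlap. The ratio of IFNAR1 to IFNAR2 was between 7.44 and 12.01. These are sums and ratios of FPKM, which is per length, and carry no test.

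Among the kinases, TYK2 (ENSG00000105397, chr19:10350533-10380608), which serves IFNAR1 and the IL-12 and IL-23 receptors, was the most abundant per length. It stood at 29.0 and 29.5 FPKM in parental DMSO, 27.4 and 27.4 in parental DAC, 26.1 and 26.0 in resistant DMSO, and 22.5 and 23.5 in resistant DAC. The 4 groups did not overlap. DAC lowered it by 6.27% in parental cells (log2 difference -0.09 ± 0.03 SE, adjusted p = 0.0417) and 11.7% in resistant cells (-0.17 ± 0.03 SE, adjusted p = 0.0186). Of the 8 fits that left out a library, the parental call was kept in the 2 without a resistant DAC library. It was lost without parental DMSO replicate 1 (-0.10, adjusted p = 0.0835), parental DMSO replicate 2 (-0.08, adjusted p = 0.160), either parental DAC replicate (-0.09, adjusted p = 0.104 and 0.101) or either resistant DMSO replicate (-0.09, adjusted p = 0.0651 for each). Among 10 other settings the parental call was lost in 4, with adjusted p up to 0.110. The parental fall was larger under quantile normalization (-0.18, adjusted p = 0.00269) and upper-quartile scaling (-0.20, adjusted p = 0.00140). The resistant call was kept in 5 of 8 fits without a library. In resistant cells it was lost without resistant DMSO replicate 1 (-0.17, adjusted p = 0.0945), resistant DMSO replicate 2 (-0.18, adjusted p = 0.0802) or resistant DAC replicate 1 (-0.14, adjusted p = 0.0847).

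JAK1 (ENSG00000162434, chr1:64833223-65067754), the kinase common to both IFN receptors and to many cytokine receptors, differed between the lines and not detectably with DAC. It was at 9.99 and 9.83 FPKM in parental DMSO, 10.6 and 10.3 in parental DAC, 7.46 and 7.70 in resistant DMSO, and 7.62 and 7.39 in resistant DAC. Every resistant library was under every parental one. The resistant line was 23.5% lower with DMSO (log2 difference -0.35 ± 0.04 SE, adjusted p = 0.00046) and 28.3% lower with DAC (-0.43 ± 0.04 SE, adjusted p = 0.000116). The DAC differences were 0.07 (95% interval -0.03 to 0.17) in parental cells and -0.01 (95% interval -0.11 to 0.09) in resistant cells.

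JAK2 (ENSG00000096968, chr9:4984390-5129948), the kinase of IFNGR2 and of the erythropoietin and GM-CSF receptors, was at 8.21 and 7.28 FPKM in parental DMSO, 8.57 and 8.95 in parental DAC, 6.06 and 6.16 in resistant DMSO, and 7.34 and 7.44 in resistant DAC. DAC libraries stood above DMSO libraries in both lines, by 13.1% and 21% of the mean, and both differences missed the threshold (adjusted p = 0.0563 and 0.0512). Both passed with voom on recovered reads (0.18, adjusted p = 0.0136, and 0.28, adjusted p = 0.00410) and over the genes with a mean of at least 5 FPKM (adjusted p = 0.0491 and 0.0265). The parental difference was smaller under quantile normalization (0.07, adjusted p = 0.354) and upper-quartile scaling (0.06, adjusted p = 0.462). Under these scalings the resistant difference was 0.23 (adjusted p = 0.0622 and 0.0609). In parental cells the difference was 0.24 without parental DMSO replicate 1, which passed the test, and 0.08 without parental DMSO replicate 2, which did not. In resistant cells the test was passed without parental DMSO replicate 1 or replicate 2 (0.24 in each fit), which moved only the shared spread. The resistant line was lower by 0.30 with DMSO (adjusted p = 0.00519) and by 0.22 with DAC (adjusted p = 0.0157) on the log2 scale. The DAC call was lost without parental DAC replicate 2 (-0.19, adjusted p = 0.0835), resistant DAC replicate 1 (-0.21, adjusted p = 0.0665) or resistant DAC replicate 2 (-0.23, adjusted p = 0.052), and with FPKM rescaled to TPM (-0.11, adjusted p = 0.185).

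The 3 kinases summed to 46.6 to 47.2 FPKM in the parental libraries with either treatment, 39.6 and 39.8 in resistant DMSO, and 37.4 and 38.3 in resistant DAC. TYK2 made up 58.8% to 65.9% of that sum, JAK1 18.8% to 22.9% and JAK2 15.3% to 19.6%. DAC libraries had the larger JAK2 share in each line (18.4% and 19.2% against 17.4% and 15.6%, and 19.6% and 19.4% against 15.3% and 15.5%).

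**Figure D3:**
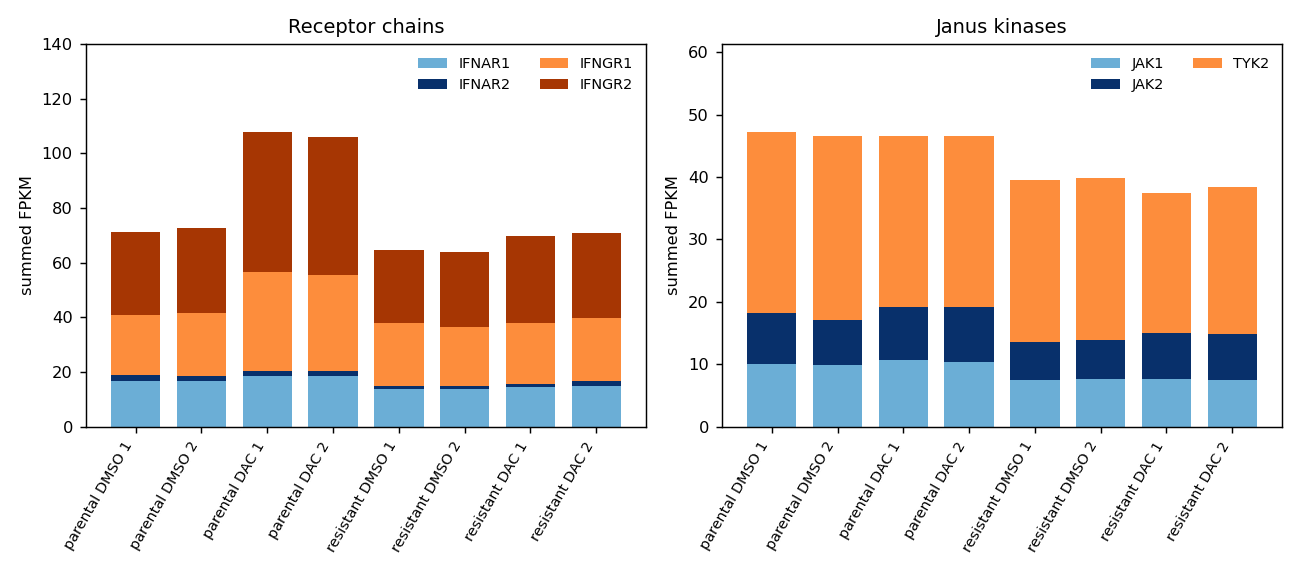
Stacked FPKM of the 4 receptor chains (left) and of the 3 Janus kinases (right) in each library. The receptor sum is 106 to 108 in the parental DAC libraries and 64.0 to 72.6 elsewhere, whereas the kinase sum separates by line, 46.6 to 47.2 in parental and 37.4 to 39.8 in resistant libraries.

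STAT2 (ENSG00000170581, chr12:56341597-56360203), the STAT particular to type I and type III IFN signalling, changed most of the 9. It was at 19.9 and 19.9 FPKM in parental DMSO, 50.9 and 54.4 in parental DAC, 27.0 and 27.0 in resistant DMSO, and 25.7 and 24.6 in resistant DAC. No pair of groups overlapped, and parental DMSO was the lowest. DAC raised it 2.65-fold in parental cells (log2 difference 1.36 ± 0.04 SE, adjusted p = 9.3e-07), from the 86.2 to the 95.8 percentile of the tested genes.

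In resistant cells the DAC difference of STAT2 was -0.10 (95% interval -0.19 to -0.003, adjusted p = 0.172). The difference between the 2 responses was -1.46 ± 0.06 SE (adjusted p = 5.5e-06), past 2-fold. Without drug, the resistant line had 1.36 times the parental level (log2 difference 0.42 ± 0.04 SE, adjusted p = 0.000154), and with drug 0.477 times (-1.04 ± 0.04 SE, adjusted p = 1.8e-06). STAT2 was thus 1 of 2 genes of the 9, with SOCS1, that were higher in the resistant line without drug.

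SOCS1 (ENSG00000185338, chr16:11254417-11256204), which binds and inhibits the kinases, had the smallest mean of the 9 in each group but resistant DMSO, where its libraries spanned those of IFNAR2. It was at 0.917 and 0.646 FPKM in parental DMSO, 1.55 and 1.36 in parental DAC, 1.10 and 1.45 in resistant DMSO, and 0.981 and 1.08 in resistant DAC. These rest on few reads, from 35 in parental DMSO replicate 2 (95% Poisson interval 24.4 to 48.7) to 78 in resistant DMSO replicate 2 (61.7 to 97.3), intervals that cover counting error only. The parental DMSO pair lay under all other libraries.

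SOCS1 rose with DAC in parental cells (log2 difference 0.47 ± 0.12 SE, adjusted p = 0.0162), and the resistant line gave -0.16 (95% interval -0.46 to 0.13). The difference between the responses was -0.63 ± 0.17 SE (adjusted p = 0.0235). Since 1 FPKM was added before the logarithm, these values understate the change of so low a gene, and voom on recovered reads gave 0.91 for the parental rise and -1.20 for the difference. The parental call was lost without parental DMSO replicate 2 (0.36, adjusted p = 0.0854) and without parental DAC replicate 1 (0.41, adjusted p = 0.0736). The difference kept its call in 3 of the 8 fits without a library, being lost without parental DMSO replicate 2 (-0.52, adjusted p = 0.0682), parental DAC replicate 1 (-0.57, adjusted p = 0.0657), resistant DMSO replicate 2 (-0.51, adjusted p = 0.0726), resistant DAC replicate 1 (-0.59, adjusted p = 0.0701) or resistant DAC replicate 2 (-0.66, adjusted p = 0.0523).

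SOCS1 was also higher in resistant than in parental cells with DMSO (0.35 ± 0.12 SE, adjusted p = 0.0452), a call that 4 of 9 other settings and 2 of 8 fits without a library kept. It was lost without parental DMSO replicate 2 (0.24, adjusted p = 0.206), resistant DMSO replicate 2 (0.24, adjusted p = 0.218) or any one of the DAC libraries (0.35, adjusted p from 0.0590 to 0.0692). The gene lies inside the span of RMI2, on the other strand, with no exonic base in common in the annotation, and RMI2 had -0.11 with DAC in parental cells (adjusted p = 0.183).

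**Figure D4:**
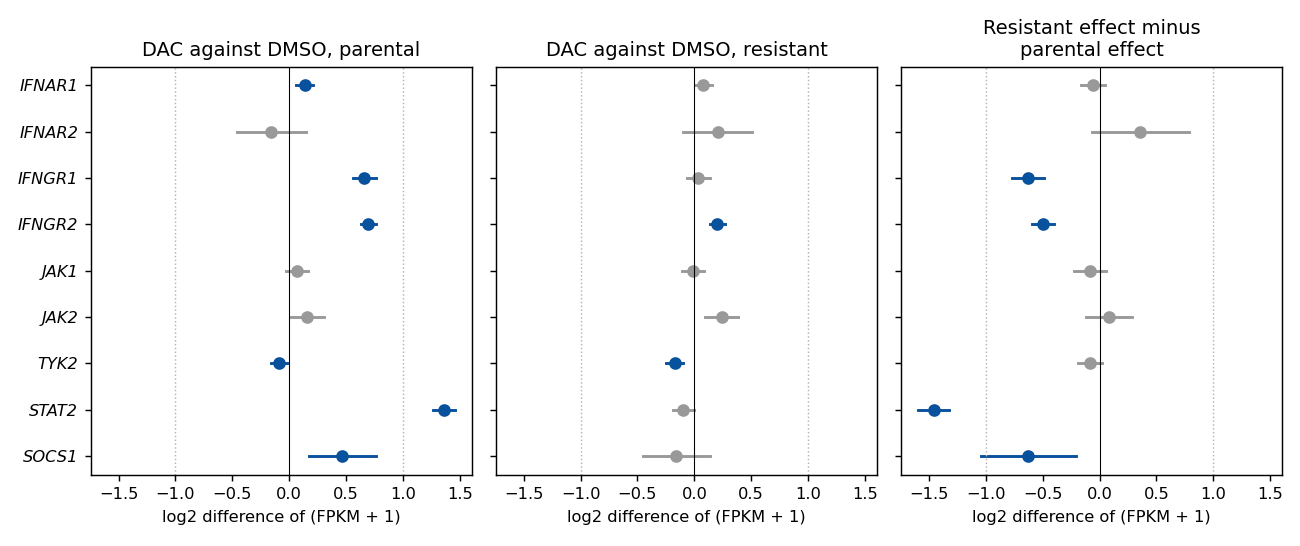
Log2 difference of FPKM + 1 for each gene with its 95% interval: DAC against DMSO in parental cells, the same in resistant cells, and the second minus the first. Blue marks an adjusted p under 0.05, and dotted lines a 2-fold change. STAT2, IFNGR1, IFNGR2 and SOCS1 are blue and below 0 in the right panel.

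Set side by side, the 2 lines differed in the DAC response of 4 of the 9 genes (STAT2, IFNGR1, IFNGR2 and SOCS1). Each response was smaller in the resistant line. Of all genes, 49.3% were called for this difference and 28.4% were called with a negative value (resistant minus parental). STAT2 was past 2-fold in this difference, as were 10.6% of all genes. Without drug, 8 of the 9 differed between the lines, beside 57.5% of all genes: the 6 lower ones were IFNAR1, IFNAR2, IFNGR2 and the 3 kinases, beside 26.2% of all genes called lower, the 2 higher ones STAT2 and SOCS1, beside 31.3% called higher, and IFNGR1 differed by -0.01 (95% interval -0.11 to 0.09). None of the 9 was past 2-fold there, beside 8.73%. With drug, 7 of the 9 were lower in the resistant line, none higher, beside 67.0% of all genes called in either direction and 35.1% called lower, and STAT2 was past 2-fold, beside 14.5%. All 9 estimates were negative, the median of the 9 was -0.31 and that of all genes -0.03.

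The order of the 4 groups therefore differed by gene. STAT2, the 2 IFN-γ receptor chains and IFNAR1 had parental DAC first by a step that passed the test. Behind it the middle steps of IFNGR1 did not differ (22.7, 22.3 and 22.2 FPKM), nor did resistant DAC and parental DMSO for IFNGR2 (31.4 and 30.9). For IFNAR1 the order was parental DAC, parental DMSO, resistant DAC and resistant DMSO (18.4, 16.7, 14.7 and 13.8 FPKM), of which the last 2 did not overlap but missed the test (log2 difference 0.08, 95% interval 0.002 to 0.153, adjusted p = 0.176). JAK1 had 1 step that passed, from parental DMSO (9.91) to resistant DMSO (7.58). No pair of neighbours passed for IFNAR2, JAK2 or SOCS1. TYK2 went from parental DMSO (29.2) through parental DAC (27.4) and resistant DMSO (26.0) to resistant DAC (23.0), and its middle step did not pass (adjusted p = 0.0807).

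Around the 9 genes, 6 of the other 7 JAK and STAT genes with IRF9 were tested, of which JAK3 and IRF9 reached 1 FPKM in parental DAC alone and so passed the filter only through the group where they were high. Of the remaining 4, 2 rose and none fell with DAC in parental cells (33.6% and 24.1% of all genes), none was called in resistant cells (11.2%), and 4 were lower in the resistant line with DAC (35.1%). IRF9, the DNA-binding partner of STAT2 in ISGF3, was at 0.66 and 0.65 FPKM in parental DMSO, 3.16 and 3.07 with DAC, and 0.39 to 0.58 in the resistant libraries. Its DAC difference in parental cells was 1.31 ± 0.10 SE on the log2 scale, as a description. JAK3, the kinase of the common γ chain, had 1 read in each parental DMSO library and 673 and 529 with DAC (3.59 and 2.83 FPKM), against 24 to 41 reads in the resistant libraries. IL2RG, the common γ chain itself, went from 0.54 and 0.30 to 5.40 and 5.92 FPKM with DAC in parental cells and was at most 0.14 in the resistant libraries.

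Of the other SOCS genes tested, 2 of 6 rose and 2 fell with DAC in parental cells, beside 33.6% and 24.1% of all genes. SOCS3, an inhibitor of gp130 cytokine signalling, was the one past 2-fold, beside 9.31% of all genes. It went from 1.27 and 1.47 to 5.19 and 4.70 FPKM (log2 difference 1.33, adjusted p = 0.000206). Of the other brakes on JAK-STAT signalling, 5 of 10 rose and none fell there, beside the same shares of 33.6% and 24.1%. USP18, which binds IFNAR2 and dampens type I signalling, rose from 2.97 and 2.68 to 28.1 and 30.9 FPKM in parental cells (2.99, adjusted p = 8.0e-06) and stood at 2.98 to 5.01 in the resistant libraries. USP18 has close copies in the genome, so its reads are uncertain to that extent. In the resistant line with DMSO, 5 of the 10 brakes were higher and 2 lower, beside 31.3% and 26.2% of all genes. SH2B3, the adaptor that restrains JAK2, was the one past 2-fold there, beside 8.73% of all genes (12.9 against 32.5 FPKM as means, 1.27).

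**Figure D5:**
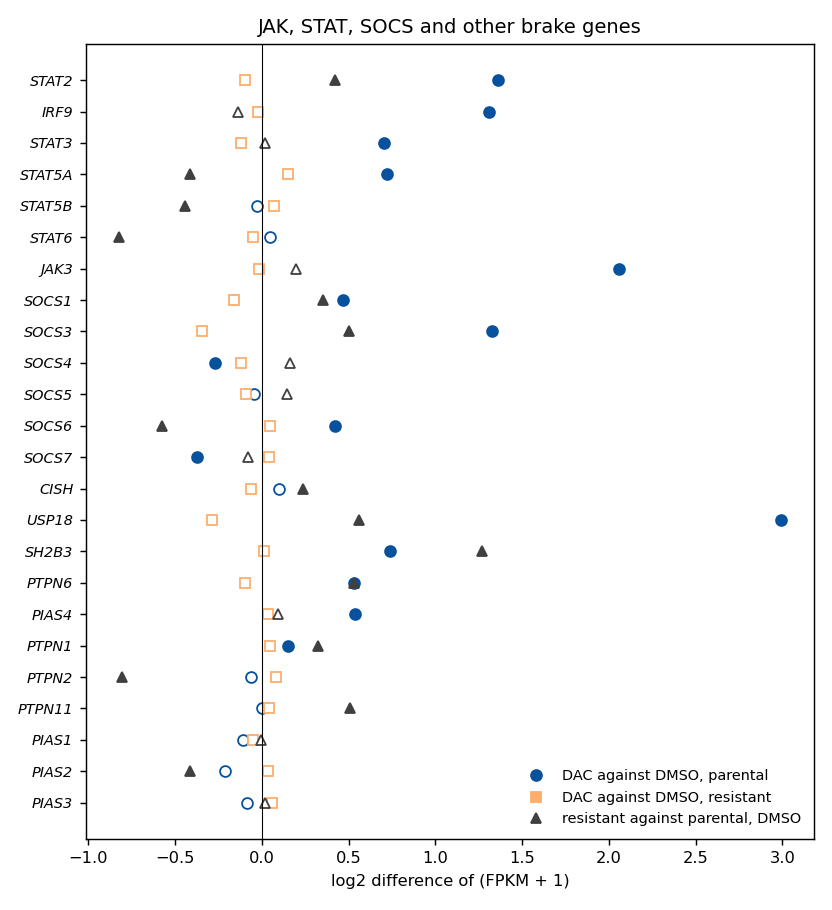
Log2 difference of FPKM + 1 for STAT2, SOCS1 and the tested genes of the JAK, STAT, SOCS and brake lists: circles DAC against DMSO in parental cells, squares the same in resistant cells, triangles resistant against parental cells with DMSO, filled where the adjusted p is under 0.05. No square is filled, and USP18, JAK3, STAT2, SOCS3 and IRF9 lie farthest to the right among the circles, JAK3 and IRF9 having passed the filter through parental DAC alone.

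Other class II cytokine receptors, the structural family of the IFN receptor chains, gave 2 rises and no fall among 4 tested with DAC in parental cells, beside 33.6% and 24.1% of all genes. IL10RA, the ligand-binding chain of the IL-10 receptor, rose past 2-fold (4.42 and 4.71 to 10.4 and 10.8 FPKM, log2 difference 1.06, adjusted p = 1.0e-05) and was lower in the resistant line with DAC (-1.77). IFNLR1, the IFN-λ receptor chain, had group means of 0.00 to 0.04 FPKM. Of the 22 other JAK-coupled receptors tested, 5 (IL2RG, IL23R, IL2RB, OSMR and LEPR) reached 1 FPKM in parental DAC alone, and their log2 differences there, 0.48 to 2.24, were built into the filter. The remaining 17 were mixed with DAC in parental cells, with 5 rises and 8 falls, against those same shares, and IL21R fell past 2-fold (-1.28). Without drug and without these 5 and IL12RB1, which passed through parental libraries alone, 10 of 16 were lower in the resistant line and 1 higher, beside 26.2% and 31.3% of all genes, with CSF2RA (-1.98) and IL21R (-1.36) the largest. CSF2RA lies in a region shared by the X and Y chromosomes, so its reads are uncertain.

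The ligands were scarce. Of 22 IFN genes, IFNB1 alone passed the filter, with 0 and 1 reads in parental DMSO, 7 and 12 in parental DAC, 46 and 51 in resistant DMSO, and 51 and 60 in resistant DAC. It reached 1 FPKM in resistant libraries alone and so passed the filter only through the line where it was high, and its log2 differences between the lines, 1.496 with DMSO and 1.14 with DAC, are given as a description. Its rise with DAC in parental cells was 0.47 (adjusted p = 0.0179). IFNK had 10 reads in the parental DMSO libraries together and 6 in resistant DMSO, IFNL1 between 0 and 8 in any library, IFNW1 8 in parental DAC replicate 1, and IFNL2, IFNA21 and IFNE at most 2 in any library. The other 15 IFN genes, IFNG among them, had 0 counted reads in all 8 libraries, which allows up to 3 reads in each by counting error alone. Most are IFN-α genes, which resemble one another, and reads that fit several genes can be left out. Their 0 therefore does not bound their level.

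The target genes of ISGF3 were set beside STAT2 as a readout, on a list of known ISGs and not as independent evidence. Of the 8, MX1 passed the filter through parental DAC alone. The other 7 rose past 2-fold with DAC in parental cells, beside 6.66% of all genes, with a median log2 difference of 4.62, and 6 of 7 were higher in the resistant line with DMSO, beside 31.3%, with a median of 2.68. ISG15, a ubiquitin-like ISG product, averaged 3.86 FPKM in parental DMSO, 207 in parental DAC, 26.0 in resistant DMSO and 17.4 in resistant DAC, the same order of groups as STAT2. With DAC in resistant cells these 7 fell, by 0.29 to 0.56, beside 5.35% of all genes, and MX1, a dynamin-like antiviral GTPase, was at 0.28 FPKM in parental DMSO, 22.6 in parental DAC and 0.12 and 0.13 in the resistant groups. Of the 9 genes of the IFN-γ type 7 were tested, and GBP1 passed through parental DAC alone. The other 6 rose with DAC in parental cells (median 0.88, beside 33.6% of all genes called higher), and 2 were higher and 3 lower in the resistant line with DMSO (median -0.12, beside 31.3% and 26.2%). GBP5, a guanylate-binding protein, stood out among them at 0.16, 5.12, 9.66 and 9.82 FPKM in the 4 groups in the same order.

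Among the genes most like STAT2 over the 8 libraries, of 7238 genes with a mean of at least 5 FPKM, were SIGLEC1, a macrophage lectin (Pearson r = 0.998 of log2(FPKM + 1)) and IFI27, an ISG (0.996). The points share 4 groups, so a correlation over them mostly repeats the group pattern and is a description. SIGLEC1 had means of 0.526, 23.2, 2.25 and 1.59 FPKM in parental DMSO, parental DAC, resistant DMSO and resistant DAC, and IFI27 of 0.343, 189.7, 6.74 and 5.09.

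The nearest tested neighbours outside chromosome 21 were compared in the same fit. IFNGR1 had MAP3K5 on one side, 404386 bases away, which rose with DAC in parental cells (log2 difference 0.65, adjusted p = 0.000728). On the other side was TNFAIP3, 647765 bases away (0.22, adjusted p = 0.00506). STAT2 had IL23A, 1187 bases away, which rose by 0.38 (adjusted p = 0.00924) and was not called between the lines with DMSO (0.11, adjusted p = 0.322), and the small RNA pseudogene RNU7-40P inside its span, which rose by 1.65 (adjusted p = 0.00768). JAK1 lay between RAVER2 and AK4, which both fell in parental cells with DAC (-0.52 and -0.90) while JAK1 was not called. JAK2 had RCL1 (0.49, adjusted p = 0.003) and, within its span, the pseudogene MTND6P5 (0.27, adjusted p = 0.336). TYK2 stood between ICAM3, not called in any of these comparisons, and CDC37, the kinase co-chaperone, which fell with DAC in both lines (-0.31 and -0.35) and, opposite to TYK2, was higher in the resistant line with DMSO (0.40, adjusted p = 0.00013). SOCS1 had CLEC16A, which fell by 0.19 in parental cells (adjusted p = 0.0156).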

How the data were processed

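Total RNA of the 8 samples went through an mRNA library kit and was sequenced. According to the paper's methods and the submitters' processing notes, the authors trimmed reads with cutadapt 1.9.1, aligned them to hg38 with HISAT2 2.1.0 and counted them with HTSeq 0.13.5 on Ensembl genes. The authors deposited FPKM values, written as FPKM multiplied by 1000, for 60664 genes and 1264 repeat families, and the latter were not used here. Whole reads were recovered with exon lengths of GENCODE release 44 or the shortest length that made all 8 values whole (within 0.02 of a read), for 97.6% of genes above 0. For IFNGR2 the length found leaves a factor of 2 in the reads open, so its reads are not printed.

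Genes reaching 1 FPKM in 2 or more libraries were tested as log2(FPKM + 1) with limma 3.58.1 (R 4.3.3). A single model held the 4 group means, its variances were moderated with a trend on expression (4 residual and 2.5 prior degrees of freedom), and p-values took Benjamini-Hochberg adjustment over all 14899 genes. An exact permutation test of 2 against 2 libraries cannot go below p = 0.333. The replicates are biological by the labels. The fit was tested on simulated data. Ratios, percentages and group SDs use FPKM, and intervals of counts are 95% Poisson intervals.

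The members and lists were chosen with earlier results of these data known. Named were the 9 members, list genes past 2-fold (at most the 3 largest each way), IFN genes above 0, the nearest tested neighbours, and the 3 genes most correlated with a member past 2-fold. Genes named outside this rule (STAT2 partners and group examples such as ISG15, MX1, GBP5, IFNLR1 and NKG7, and list genes that passed the filter on one side of a comparison alone) were chosen after their values were seen. Some genes that the rule or the lists cover are not reported here.

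Alternatives were a pseudocount of 0.1, no filter, a mean of at least 5 FPKM, TPM, scaling by quantiles or by the upper quartile, a replicate block, a fit of the compared libraries alone, no variance trend, the 2-fold call rule, voom on the recovered reads, and omission of each library in turn.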

Additional observations from a re-analysis of the deposited data

Results flagged for a closer look

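The response to DAC differed between the lines by a test of the difference itself for 4 of the 9 genes, beside 49.3% of all genes. Each of the 4 had a smaller log2 change in resistant than in parental cells. STAT2 had a difference of -1.46 (limma adjusted p = 5.5e-06), IFNGR1 -0.63 (adjusted p = 0.000258), IFNGR2 -0.49 (adjusted p = 0.000129) and SOCS1 -0.63 (adjusted p = 0.0235). For SOCS1 both parental DAC libraries were above both DMSO libraries, and both resistant DAC libraries under both DMSO libraries. STAT2 had the same opposed signs. With 2 libraries per group no single library could be examined as an outlier.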

How the results depend on the processing

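Leaving the report's settings one at a time gave 431 values of single genes, of which 397 kept their direction and side of the threshold, 20 lost and 4 gained the call (all of JAK2 with DAC) and 10 turned direction, and leaving out each library gave 360, with 320, 30, 4 and 6. STAT2, IFNGR1 and IFNGR2 kept the parental rise and the difference between the lines in each of these fits. Without a filter on low values the calls lost were TYK2 with DAC in parental and resistant cells (adjusted p = 0.0716 and 0.0670), SOCS1 with DAC in parental cells, between lines in DMSO and in the difference (0.0662, 0.171 and 0.0951), IFNAR2 between lines in DMSO (0.0873) and JAK2 between lines in DAC (0.0631). SOCS1 rests on 35 to 78 reads per library. Each group had 2 libraries.

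By the 2-fold rule the 6 calls with DAC in parental cells became 1, the 8 between lines in DMSO 0, the 7 between lines in DAC 1, the 4 differences 1 and the 2 with DAC in resistant cells 0. Those 2 became 1 without a filter, 0 in a fit of the libraries compared and 1 without a variance trend. The cause was not tested. Leaving out each library in turn gave 4 to 6, 6 to 7, 6 to 7, 3 to 4 and 0 to 3 calls in the same order. The calls gained were JAK2 with DAC and, without resistant DAC replicate 1, a difference between the DAC effects of IFNAR2 (0.52, adjusted p = 0.0424), larger in resistant cells. The replicate numbers did not pair the samples (correlations of deviations -0.02 to 0.02), and with the replicate block the counts were 5, 7, 7, 4 and 2. TYK2 with DAC in parental cells lost its call there (adjusted p = 0.0534), in a fit of the libraries compared (0.0559) and without a variance trend (0.110).

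Turned in direction, none called: JAK1 with DAC in parental cells under quantile normalization (-0.032) and upper-quartile scaling (-0.035), JAK1 with DAC in resistant cells under TPM (0.015), IFNGR1 between lines in DMSO under TPM (0.059), IFNAR2 between lines in DAC under quantile normalization (0.035), and the differences of IFNAR1 (0.039 and 0.044 under these scalings), JAK1 (0.014 and 0.015) and TYK2 (0.022 under upper-quartile scaling). Over the fits without a library JAK1 ran from -0.033 to 0.0076 and IFNGR1 from -0.0052 to 0.072 in resistant cells, IFNGR1 from -0.051 to 0.030 between lines in DMSO, and IFNAR2 from -0.29 to 0.028 between lines in DAC. A fit of only the libraries compared has no value for the differences, and IFNAR2 and SOCS1 fall under a mean of 5 FPKM.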
